A study of Mus musculus with 6 samples.

Results

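The 10 enzymes that take tryptophan through kynurenine to NAD, or that recycle nicotinamide and nicotinate into NAD, were followed in whole mouse kidney. They were Afmid, Kmo, Kynu, Haao, Qprt, Acmsd, Aadat, Nampt, Naprt and Nadsyn1, and were taken by symbol from the deposited gene table, which listed all 10 among its 24434 symbols. The study sequenced polyadenylated RNA from whole kidneys in 3 libraries labelled db/db, its diabetic model, and 3 labelled db/m, its controls, all of mice on normal chow. The db allele disrupts the leptin receptor gene Lepr in the whole animal, and db/m mice carry a single copy of it. The sources used here give no strain, age or sex and do not say that every library is another animal, so the spread behind each p-value may be technical. The 10 genes were selected on their place in the pathway with the db/db against db/m log2 fold changes of these same libraries already known. What they show in that comparison, calls included, is therefore given as a description and without p-values.

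In the kynurenine pathway a dioxygenase opens the indole ring of tryptophan, and successive enzymes turn the product into kynurenine, 3-hydroxykynurenine and 3-hydroxyanthranilate. The ring is then opened again, and the unstable product either closes by itself to quinolinate, from which NAD is made, or is diverted towards complete oxidation. Kynurenine can also leave the route by transamination to kynurenic acid, and most NAD in mammalian tissues is rebuilt from nicotinamide by salvage. The proximal tubule of the kidney is a known site of these reactions, and the kidney is among the few organs able to make NAD from tryptophan.

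Total counts ran from 27023129 to 29868789 in db/db libraries and from 25937756 to 35931140 in db/m libraries. Lepr overlapped between the groups, at 2.54 to 5.66 CPM (counts scaled to a common library size with TMM factors) in db/db and 2.48 to 3.61 CPM in db/m, and a gene-level count cannot show the altered splicing that the db allele causes. Markers of the proximal tubule were abundant in every library: the 10 listed for its first segments, S1 and S2, summed to 12530 to 15472 CPM in db/db and 9303 to 12592 CPM in db/m, with 2 higher and 2 lower. Markers of the last segment, S3, summed to 3138 to 4281 CPM in db/db and 350.1 to 580.2 CPM in db/m, and 6 of 7 rose. All 9 listed male-biased kidney genes rose, with sums of 44525 to 48678 CPM in db/db and 1199 to 3151 CPM in db/m. Kap alone gave 33061 to 36390 CPM of this in db/db and 231 to 1400 CPM in db/m, and 3 genes, Cyp7b1, Slc7a13 and Acsm3, stand in both the S3 and the male-biased list. The adipocyte marker Adipoq was highest in replicate 3 of each group, at 19.2 CPM in db/db replicate 3 and 13.6 CPM in db/m replicate 3, and did not exceed 1.34 CPM elsewhere. Hepatocyte markers summed to 60.1 to 71.8 CPM in db/db and 65.7 to 75.8 CPM in db/m, with 1 of 6 tested higher and 0 lower in edgeR (2 lower at an unadjusted p below 0.05, 1 in DESeq2). The part of these shifts in the results below was not tested, and in whole tissue fewer cells of a type and less RNA per cell cannot be told apart. The sources used here give no sex for either group, and the sex of each library was not examined in the counts. A difference in sex was therefore not separated from one in genotype in any result below.

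Kynu differed most of the 10 and stood 14.7-fold lower in db/db kidneys, whereas its neighbours in the pathway stood slightly to moderately higher. All 10 genes passed the filter on low counts. By the edgeR quasi-likelihood test over all 16373 genes, with Benjamini-Hochberg adjustment and a call at an adjusted p below 0.05, 3 were called higher (Kmo, Haao and Qprt) and 2 lower (Kynu and Nampt). Over all genes tested, 24.0% were called, 13.1% as higher and 10.8% as lower. The same 5 genes, and no other of the 10, had groups that did not overlap, which held for 44.6% of all genes. The median log2 fold change was 0.21 over the 10 genes and -0.057 over all genes.

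**Figure D1:**
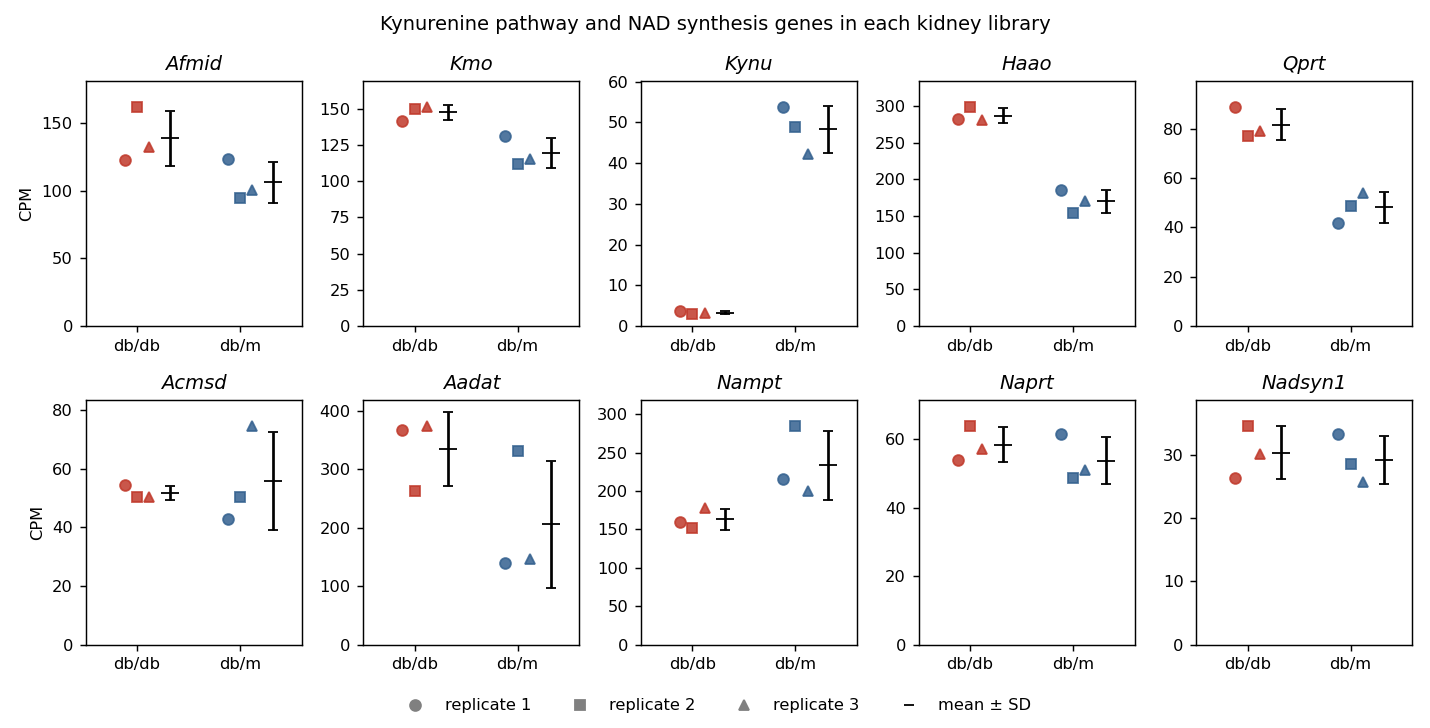
Transcript level in CPM (linear axis from 0) of each of the 10 genes in the 3 db/db (red) and 3 db/m (blue) libraries, in the order of the pathway; marker shapes give the replicate number and black bars the mean ± SD. Kynu lies at 3.01 to 3.61 CPM in db/db and 42.3 to 53.7 CPM in db/m, and Aadat shows db/m replicate 2 level with the db/db libraries.

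Afmid, the formamidase that releases kynurenine from the first ring-opened product, was at 122, 162 and 132 CPM in db/db replicates 1 to 3 and 124, 94.5 and 100.1 CPM in db/m replicates 1 to 3. The groups overlapped, through db/m replicate 1 alone. Its log2 fold change was 0.39 (SE 0.14) and was not called, although without db/m replicate 1 it was 0.52 and called. In GENCODE M21, 44.2% of the exon sequence of Afmid also belongs to Gm20708 on the same strand, so its count may be incomplete.

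Kmo, the monooxygenase that makes 3-hydroxykynurenine, was at 142, 150 and 151 CPM in db/db replicates 1 to 3 and 131, 112 and 115 CPM in db/m replicates 1 to 3. Every db/db library lay above every db/m library, by a small margin. The log2 fold change of 0.30 (SE 0.09) was called only in the analysis as reported and in 4 of 13 other settings. Without db/db replicates 1, 2 or 3 it was 0.34, 0.30 and 0.29, and without db/m replicates 2 or 3 it was 0.26 and 0.29, none of them called. With total counts in place of TMM factors it was 0.044.

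Kynu encodes kynureninase, the pyridoxal phosphate enzyme that cleaves 3-hydroxykynurenine to 3-hydroxyanthranilate and kynurenine to anthranilate. It had 90, 76 and 89 counts in db/db replicates 1 to 3 and 1477, 1928 and 1314 counts in db/m replicates 1 to 3. In CPM these were 3.61, 3.01 and 3.25 in db/db and 53.7, 48.8 and 42.3 in db/m. The db/db libraries were uniformly low, with a coefficient of variation of 9.20% against 11.8% in db/m, and no library came near the other group. Kynu was 14.7-fold lower in db/db, with a log2 fold change of -3.87 (SE 0.14). Called changes of at least 2-fold in either direction made up 7.82% of all genes. In 13 other settings the log2 fold change of Kynu ran from -4.13 to -3.78 and was called each time. Kynu is also expressed by macrophages, whose 9 listed markers summed to 130 to 151 CPM in db/db and 71.5 to 210.4 CPM in db/m. Of these, Lyz2 fell (log2 fold change -1.48, edgeR adjusted p = 0.0395), at 13.3 to 16.3 CPM in db/db and 16.7 to 59.2 CPM in db/m, and 0 rose in edgeR (1 was higher at an unadjusted p below 0.05 and 1 in DESeq2). Adgre1 was at 2.29 to 2.74 CPM in db/db and 1.71 to 5.02 CPM in db/m, and the part of macrophages in the level of Kynu was not tested.

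Haao, the dioxygenase that opens the ring of 3-hydroxyanthranilate, was at 282, 298 and 280.4 CPM in db/db replicates 1 to 3 and 185, 154 and 170.4 CPM in db/m replicates 1 to 3. The groups stood well apart, with a log2 fold change of 0.75 (SE 0.09). Qprt, the phosphoribosyltransferase that turns quinolinate into nicotinate mononucleotide, was at 88.7, 77.1 and 79.2 CPM in db/db replicates 1 to 3 and 41.6, 48.7 and 54.0 CPM in db/m replicates 1 to 3. Its groups did not overlap either, and its log2 fold change of 0.76 (SE 0.11) was close to that of Haao. Both were called in all 13 other settings, Haao between 0.49 and 0.83 and Qprt between 0.50 and 0.88.

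The promoters of Kmo, Haao and Qprt, the genes of the 10 that were called higher, are shown because these genes shared that call. They run 5′ to 3′ from 250 bases before to 50 bases after the RefSeq start in GRCm38.p6, and capitals mark motifs found by search.
Kmo, chr1:175631943-175632242, plus strand: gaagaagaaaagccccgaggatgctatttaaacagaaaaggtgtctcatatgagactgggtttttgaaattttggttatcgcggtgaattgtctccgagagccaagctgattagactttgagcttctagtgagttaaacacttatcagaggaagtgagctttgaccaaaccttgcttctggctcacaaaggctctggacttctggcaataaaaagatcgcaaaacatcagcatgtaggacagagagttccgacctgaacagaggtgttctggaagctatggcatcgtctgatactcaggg
Haao, chr17:83846741-83847040, minus strand: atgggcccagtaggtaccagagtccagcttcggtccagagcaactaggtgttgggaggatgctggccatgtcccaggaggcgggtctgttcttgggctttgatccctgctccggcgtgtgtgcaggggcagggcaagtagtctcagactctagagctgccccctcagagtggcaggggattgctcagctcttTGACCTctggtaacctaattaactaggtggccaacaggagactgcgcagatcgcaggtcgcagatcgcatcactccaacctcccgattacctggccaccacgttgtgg
Qprt, chr7:127121980-127122279, minus strand: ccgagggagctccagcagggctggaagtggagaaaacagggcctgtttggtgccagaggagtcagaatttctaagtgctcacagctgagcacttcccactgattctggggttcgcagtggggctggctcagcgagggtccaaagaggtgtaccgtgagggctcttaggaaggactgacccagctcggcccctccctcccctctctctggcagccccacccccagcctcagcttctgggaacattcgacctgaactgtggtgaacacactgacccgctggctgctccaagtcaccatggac
On both strands, 4 motifs were searched: CAAAGTNCA, contacted by HNF4; AGGTCA, shared by many nuclear receptors; the E-box CACGTG; and TATAAA. Haao held AGGTCA, on the reverse strand from position -58, where -1 is the base before the start. Neither Kmo nor Qprt held any of the motifs in this window. Of 32851 mouse promoters of the same length, 16.3% held AGGTCA, so such a match is common and describes letters only. RefSeq promoters were matched for 8 of the 10 genes. Among the others, Acmsd held AGGTCA from position -232 and Aadat held CAAAGTNCA from position -72, both on the reverse strand. CAAAGTNCA was in 1.41% of promoters.

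Acmsd, the decarboxylase that diverts the open-ring product away from quinolinate, was at 54.4, 50.4 and 50.2 CPM in db/db replicates 1 to 3 and 42.7, 50.3 and 74.6 CPM in db/m replicates 1 to 3. The db/db libraries fell within the range of the db/m libraries. The log2 fold change was -0.11 (SE 0.19), and it was 0.16 without db/m replicate 3, the highest library. Qprt acts on quinolinate after this branch, and the ratio of Qprt to Acmsd counts within a library, which no scaling factor affects, was 1.63, 1.53 and 1.58 in db/db replicates 1 to 3 and 0.975, 0.969 and 0.724 in db/m replicates 1 to 3. In each db/db library Qprt had more counts than Acmsd, and in each db/m library fewer.

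Aadat, an aminotransferase that makes kynurenic acid from kynurenine, was at 368, 262 and 374 CPM in db/db replicates 1 to 3 and 139.5, 332 and 146 CPM in db/m replicates 1 to 3. Replicate 2 of db/m lay among the db/db libraries, and the other two db/m libraries lay far below them. The log2 fold change of 0.70 (SE 0.34) was not called, and it became 1.23 and called without db/m replicate 2. Within libraries, the ratio of Aadat to Kynu counts averaged 101.4 ± 14.1 in db/db and 4.28 ± 2.22 in db/m (SD, n = 3 each). The ratio of Haao to Kynu averaged 87.8 ± 10.6 in db/db and 3.55 ± 0.44 in db/m, and that of Kmo to Kynu 45.1 ± 5.34 in db/db and 2.49 ± 0.22 in db/m. None of these ratios overlapped between groups, and each contains the low Kynu count of db/db. The ratio of Qprt to Haao, in contrast, overlapped, at 0.285 ± 0.028 in db/db and 0.286 ± 0.053 in db/m.

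**Figure D2:**
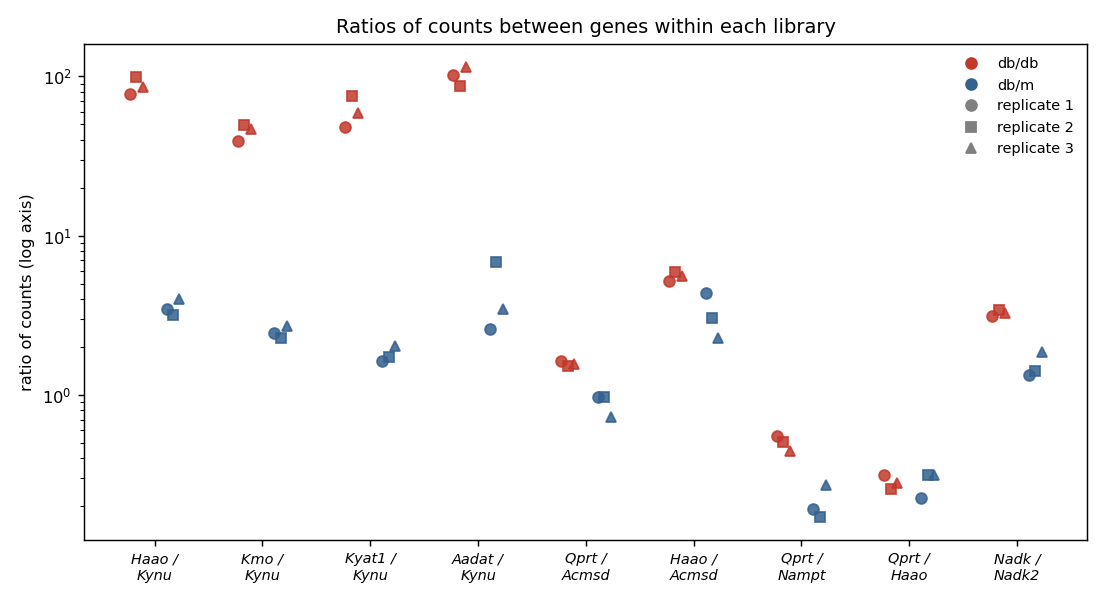
Ratio of counts (log axis) between 2 genes of the same library for 9 pairs, with db/db in red on the left and db/m in blue on the right of each pair and marker shapes for the replicate number. Ratios over Kynu differ most, Qprt to Acmsd lies at 1.53 to 1.63 in db/db and 0.724 to 0.975 in db/m, and Qprt to Haao overlaps.

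Of Nampt, Naprt and Nadsyn1, which serve salvage, only Nampt was called. Nampt, the rate-limiting enzyme of NAD salvage from nicotinamide, was at 159, 152 and 178 CPM in db/db replicates 1 to 3 and 215, 285 and 199.6 CPM in db/m replicates 1 to 3. The groups did not overlap, but db/m replicate 2 stood above its group. Nampt had a log2 fold change of -0.52 (SE 0.14), which was called, but it was -0.34 and not called without db/m replicate 2. The call also ended without db/m replicate 1 (-0.56) and without db/db replicate 1 (-0.49), 2 (-0.46) or 3 (-0.58). Adipocytes express Nampt, and their 7 markers summed to 71.4 to 374.4 CPM in db/db and 52.0 to 177 CPM in db/m. Most of each sum was the marker Fabp4, at 68.3 to 234 CPM in db/db and 48.7 to 109 CPM in db/m. None of the 5 markers tested was called in edgeR (0 at an unadjusted p below 0.05 and 0 in DESeq2). Without replicate 3 of both groups, the adipocyte-rich libraries, the log2 fold change of Nampt was -0.68, not called.

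Naprt, which makes nicotinate mononucleotide from nicotinate, was at 53.9, 64.0 and 57.2 CPM in db/db replicates 1 to 3 and 61.5, 48.6 and 51.1 CPM in db/m replicates 1 to 3. Nadsyn1, which amidates nicotinate adenine dinucleotide to NAD at the end of both the quinolinate and the nicotinate route, was at 26.4, 34.7 and 30.3 CPM in db/db replicates 1 to 3 and 33.4, 28.6 and 25.8 CPM in db/m replicates 1 to 3. The groups overlapped for both genes, for Naprt through db/m replicate 1 alone. The log2 fold changes were 0.12 (SE 0.12) for Naprt and 0.058 (SE 0.14) for Nadsyn1, neither was called, and with total counts only both were negative, at -0.14 and -0.20. In GENCODE M21, 11.8% of the exon sequence of Naprt is shared with Eef1d on the same strand. The count ratio of Qprt to Nampt, between the de novo and the salvage route, averaged 0.503 ± 0.056 in db/db and 0.212 ± 0.052 in db/m (SD, n = 3 each) and did not overlap.

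Nampt is a textbook target of the circadian activators CLOCK and BMAL1, which bind E-boxes, and its promoter is shown for that reason, with its build and capitals as above.
Nampt, chr12:32820085-32820384, plus strand: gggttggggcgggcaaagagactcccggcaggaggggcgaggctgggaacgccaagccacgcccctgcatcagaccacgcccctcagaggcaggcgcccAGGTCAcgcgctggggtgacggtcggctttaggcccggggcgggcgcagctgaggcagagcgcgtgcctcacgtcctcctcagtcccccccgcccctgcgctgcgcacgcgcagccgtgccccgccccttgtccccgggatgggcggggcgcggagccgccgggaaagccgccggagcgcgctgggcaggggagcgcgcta
This window held AGGTCA from position -151 and no CACGTG, a motif found in 7.15% of promoters of this length. Arntl, the gene of BMAL1, fell to 1.41 ± 0.21 CPM in db/db, against 6.75 ± 1.57 CPM in db/m (log2 fold change -2.26, SE 0.26, edgeR adjusted p = 0.00168, lower in 3 of 3 db/db libraries). Clock was at 24.4 ± 1.65 CPM in db/db and 29.4 ± 2.07 CPM in db/m and did not pass (edgeR adjusted p = 0.0828). No hour of kidney collection is stated in these sources. E-boxes outside the window shown were not searched, and the part of Arntl in the level of Nampt was not tested.

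Scaled to the length of exon sequence in GENCODE M21, Aadat was the most abundant of the 10 transcripts in both groups, at 154 ± 29.0 CPM per kb in db/db and 94.5 ± 50.1 CPM per kb in db/m (SD, n = 3 each). Kynu was the least abundant in both, at 0.535 ± 0.049 CPM per kb in db/db and 7.85 ± 0.93 CPM per kb in db/m. In db/m this place rests on the length used, 6.149 kb with all annotated exons joined, which the expressed transcript may not share. Before scaling to length, Kynu in db/m was at 48.3 CPM, above Nadsyn1 at 29.3 CPM. In db/db, Haao came next below Aadat at 61.3 ± 2.11 CPM per kb. Afmid at 39.2 ± 5.77 CPM per kb overlapped in spread with Nampt at 32.3 ± 2.65 CPM per kb, which lay within its spread of Kmo at 31.2 ± 1.06 and Qprt at 30.9 ± 2.34 CPM per kb. In db/m the next places belonged to Nampt at 46.1 ± 8.99 and Haao at 36.3 ± 3.33 CPM per kb, whose spreads overlapped. There Naprt, Acmsd and Qprt followed Afmid and Kmo at 22.9 ± 2.91, 19.7 ± 5.89 and 18.2 ± 2.36 CPM per kb and could not be ordered. Nadsyn1 was next to last in both, at 9.21 ± 1.26 CPM per kb in db/db and 8.86 ± 1.17 CPM per kb in db/m, and in db/m its spread overlapped that of Kynu.

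**Figure D3:**
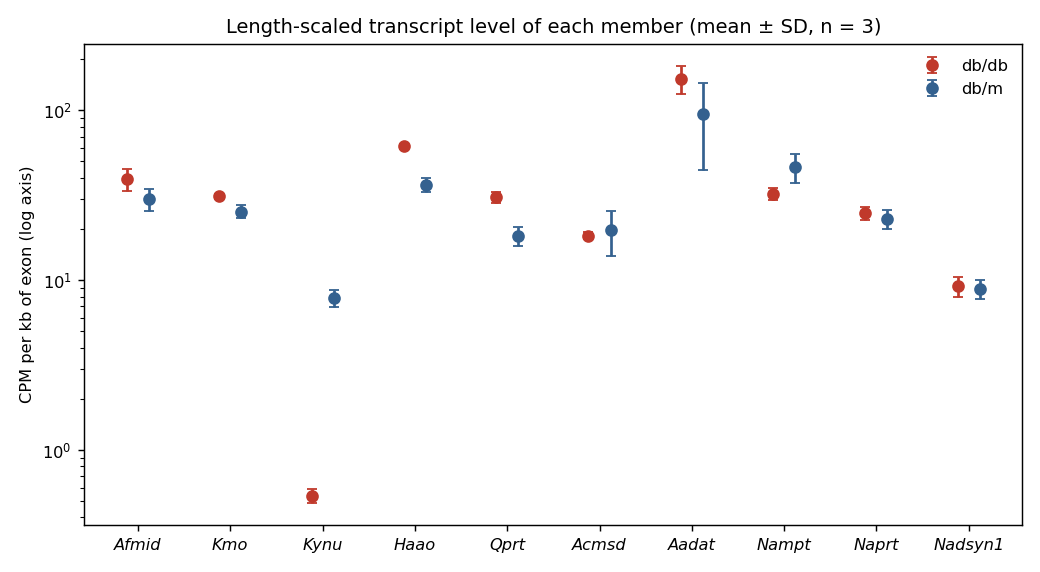
Mean level of each of the 10 genes in CPM per kb of exon sequence (log axis), db/db in red left of db/m in blue, with bars for the SD of 3 libraries. Kynu falls to 0.535 CPM per kb in db/db, below all other genes of either group, while Haao and Qprt stand above their db/m levels.

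Related genes went both ways. Of 59 symbols in 7 lists of adjoining reactions, transporters, receptors and regulators, 57 were in the table and 53 were tested, of which 8 rose and 11 fell. This was 35.8% called, against 24.0% of all genes. The lists too were chosen with earlier results of these data known, so this share is a description. The same holds for the adjusted p-values printed for genes of these lists, some of which were named for their small p. The median log2 fold change was -0.066, against -0.057 over all genes. Without db/db replicate 3 the calls came to 5 higher and 7 lower, and with total counts only to 5 higher and 20 lower. With total counts only, Nadk was at 0.41, Nadk2 at -0.69 and Parp2 at -0.72 on the log2 scale, all still called, whereas Ido2 at 0.81 and Nudt12 at 0.35 were not.

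Transcripts of Tdo2 and Ido1, the main dioxygenases that open the ring of tryptophan, were near the detection limit. Tdo2 had 4 counts in each db/db library and 0 to 4 in db/m libraries, and Ido1 had 0 to 8 counts in db/db and 0 to 10 in db/m, near the limit of 3 counts (0.109 to 0.120 CPM in db/db and 0.076 to 0.109 CPM in db/m) that a count of 0 allows, and neither passed the filter. Ido2, a related dioxygenase of low activity, was at 9.83, 10.1 and 10.9 CPM in db/db replicates 1 to 3 and 3.16, 3.95 and 7.50 CPM in db/m replicates 1 to 3. It rose by 1.08 on the log2 scale (SE 0.31, edgeR adjusted p = 0.0447, higher in 3 of 3 db/db libraries). The call of Ido2 ended without db/db replicate 1, 2 or 3 (log2 fold changes 1.11, 1.10 and 1.04) and without db/m replicate 1 or 2 (0.86 and 0.95), with edgeR adjusted p from 0.0776 to 0.124, and without db/m replicate 3 it was 1.54 and called.

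Kyat1, another kynurenine aminotransferase, rose 2.31-fold. It was at 175, 228 and 191 CPM in db/db replicates 1 to 3 and 87.2, 84.3 and 85.9 CPM in db/m replicates 1 to 3, with a log2 fold change of 1.20 (SE 0.11, edgeR adjusted p = 0.000739). Each db/db library had more than 2 times the level of any db/m library, and the call held in all 13 other settings. Kyat3, a close relative with the same reaction, was at 42.3 ± 8.93 CPM in db/db and 60.6 ± 12.9 CPM in db/m (SD, n = 3 each) and did not pass (log2 fold change -0.52, edgeR adjusted p = 0.101). Got2, the mitochondrial aspartate aminotransferase that also accepts kynurenine, was at 376 ± 11.2 CPM in db/db and 389 ± 19.8 CPM in db/m (edgeR adjusted p = 0.678). Aldh8a1, which oxidises the product of Acmsd, rose by 0.52 on the log2 scale (SE 0.09, edgeR adjusted p = 0.00888), at 364 ± 0.95 CPM in db/db and 254 ± 25.9 CPM in db/m. Its log2 fold change was 0.26 with total counts only, still called, and 0.46 without replicate 3 of both groups, where the call ended (edgeR adjusted p = 0.0735). In all, 3 of 5 tested genes of this list rose and 0 fell in edgeR (falls numbered 0 in DESeq2 and 1 at an unadjusted p below 0.05).

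Further along the oxidative branch, 1 of 5 genes of the glutarate route rose and 0 fell in edgeR (DESeq2 gave 2 rises and 0 falls, and so did an unadjusted p below 0.05). In edgeR 20% were thus called, below the 24.0% of all genes. The gene that rose was Acat1, the mitochondrial thiolase that serves many pathways, at 1008 ± 59.3 CPM in db/db and 431 ± 20.0 CPM in db/m (log2 fold change 1.23, SE 0.09, edgeR adjusted p = 0.000333). Gcdh, the glutaryl-CoA dehydrogenase specific to this route, was at 553 ± 31.3 CPM in db/db and 493 ± 83.9 CPM in db/m and did not pass (edgeR adjusted p = 0.386). Dhtkd1, of the preceding oxoadipate step, was at 44.9 ± 4.67 CPM in db/db and 54.0 ± 16.1 CPM in db/m (edgeR adjusted p = 0.366). Hadh, a hydroxyacyl-CoA dehydrogenase, had a log2 fold change of 0.26 (SE 0.10, edgeR adjusted p = 0.0850), and it was called higher in DESeq2 (0.28, adjusted p = 0.0283) and without db/m replicate 1 (0.36, edgeR adjusted p = 0.0312).

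**Figure D4:**
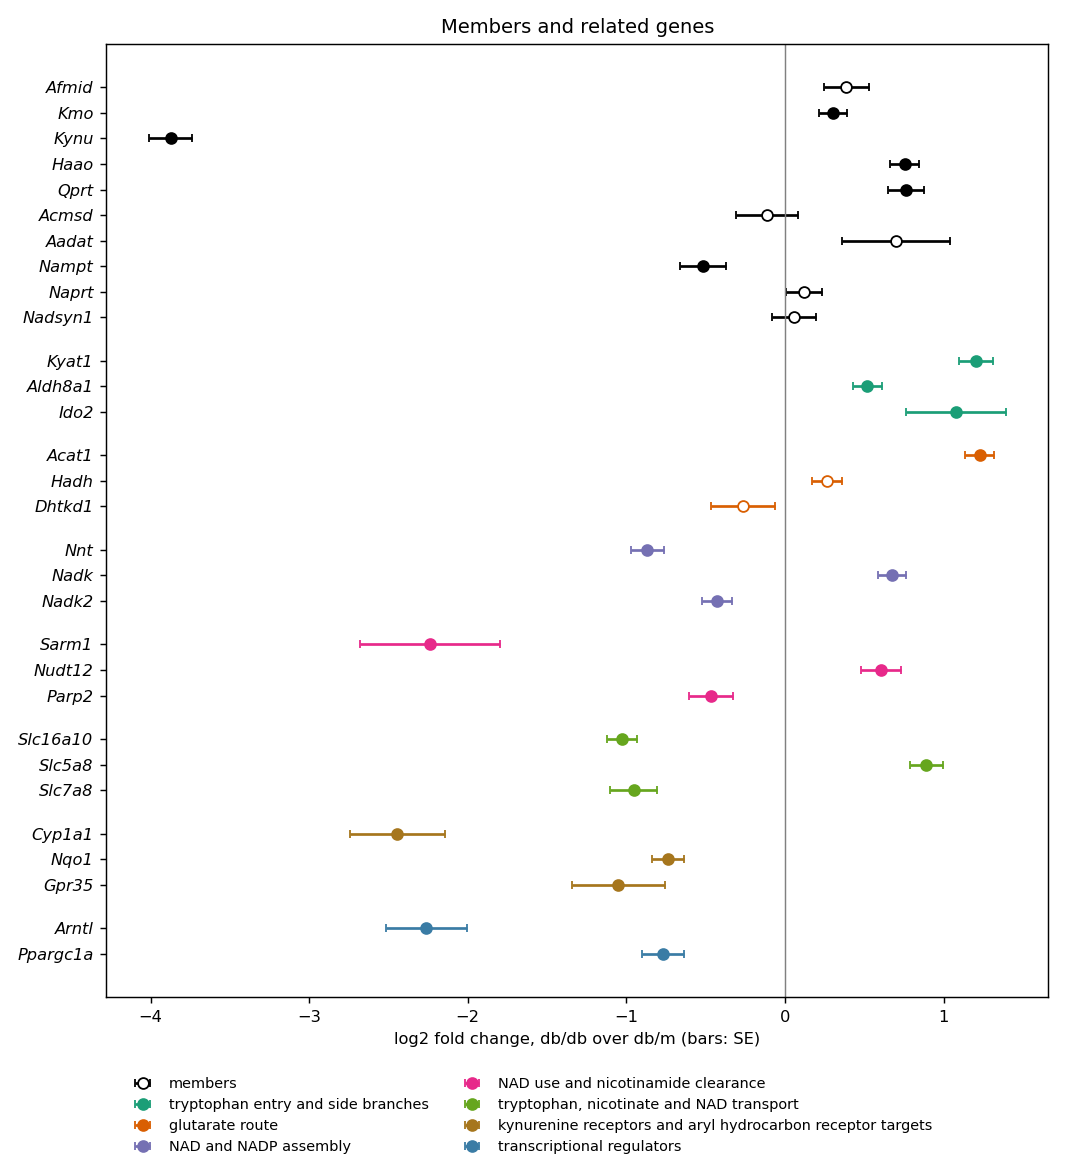
Log2 fold change of db/db over db/m with its SE for the 10 genes (black) and for 2 or 3 of the genes of smallest p in each of 7 lists of related genes (colours), with filled points for an edgeR adjusted p below 0.05 and open points otherwise. Kynu lies at -3.87, Cyp1a1 at -2.44 and Arntl at -2.26, and Acat1 at 1.23 and Kyat1 at 1.20 are farthest to the right.

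Genes that finish NAD and convert it to NADP went both ways, with 1 of 6 tested higher and 2 lower. Nadk, the cytosolic NAD kinase, rose to 201 ± 6.38 CPM in db/db, against 126 ± 10.4 CPM in db/m (log2 fold change 0.67, SE 0.09, edgeR adjusted p = 0.00249). Nadk2, the mitochondrial kinase, fell to 61.2 ± 2.46 CPM in db/db, against 82.5 ± 8.39 CPM in db/m (log2 fold change -0.43, SE 0.10, edgeR adjusted p = 0.0183). The call of Nadk2 ended without db/db replicate 1, 2 or 3 (-0.43, -0.39 and -0.45) and without db/m replicate 1 or 2 (both -0.38), with edgeR adjusted p from 0.0519 to 0.0709. Nnt, the mitochondrial transhydrogenase that makes NADPH from NADH, fell to 97.7 ± 4.34 CPM in db/db, against 178 ± 21.4 CPM in db/m (log2 fold change -0.87, SE 0.11, edgeR adjusted p = 0.00207). The count ratio of Nadk to Nadk2 averaged 3.28 ± 0.13 in db/db and 1.55 ± 0.29 in db/m. Nmnat1 and Nmnat3, the enzymes that both routes share for the last joining of mononucleotide and adenylate, did not pass, at 18.1 ± 1.25 and 20.6 ± 0.53 CPM in db/db and 15.7 ± 1.85 and 16.0 ± 2.59 CPM in db/m (edgeR adjusted p = 0.256 and 0.0836), nor did the nicotinamide riboside kinase Nmrk1 (edgeR adjusted p = 0.601).

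Of 16 genes that use NAD or clear nicotinamide, 1 rose and 2 fell. This was 18.75% called, below the 24.0% of all genes. None of the 7 sirtuins passed (log2 fold changes -0.30 to 0.26, smallest edgeR adjusted p = 0.216). Nudt12, which hydrolyses NADH, rose by 0.61 (SE 0.13, edgeR adjusted p = 0.0157), but without db/db replicate 1 or 3 it was 0.59 and 0.52 with edgeR adjusted p = 0.0503 and 0.0560. Parp2, a DNA damage-activated polymerase that consumes NAD, fell by 0.47 (SE 0.14, edgeR adjusted p = 0.0460), and the call ended without db/db replicate 1, 2 or 3 (-0.38, -0.48 and -0.52) and without db/m replicate 1 or 2 (-0.37 and -0.46), with edgeR adjusted p from 0.0808 to 0.127. Sarm1, an NAD hydrolase of neurons, was near the detection limit at 0.287 ± 0.092 CPM in db/db and 1.36 ± 0.49 CPM in db/m (log2 fold change -2.24, SE 0.44, edgeR adjusted p = 0.0121), and without db/db replicate 3 it did not pass (-1.99, edgeR adjusted p = 0.0506). Parp1, the main polymerase of its family, was at 35.2 ± 1.81 CPM in db/db and 33.8 ± 4.20 CPM in db/m (edgeR adjusted p = 0.726).

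Transporters of tryptophan, nicotinate and NAD gave 1 of 8 higher and 2 lower. Slc16a10, a carrier of aromatic amino acids, fell to 25.2 ± 1.47 CPM in db/db, against 51.4 ± 4.17 CPM in db/m (log2 fold change -1.03, SE 0.10, edgeR adjusted p = 0.000808). Slc7a8, a basolateral exchanger of neutral amino acids, fell to 80.0 ± 9.999 CPM in db/db, against 155 ± 26.6 CPM in db/m (log2 fold change -0.95, SE 0.15, edgeR adjusted p = 0.00484). Slc6a19, the apical transporter that reclaims tryptophan from the filtrate, was at 275 ± 50.6 CPM in db/db and 458 ± 172 CPM in db/m and did not pass (edgeR adjusted p = 0.0768). Slc5a8, which carries nicotinate and monocarboxylates and is also among the S3 markers, rose by 0.89 (SE 0.11, edgeR adjusted p = 0.00195). Slc25a51, the mitochondrial NAD carrier, was at 202 ± 14.3 CPM in db/db and 177 ± 8.19 CPM in db/m (edgeR adjusted p = 0.150).

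Kynurenine and kynurenic acid are ligands of the aryl hydrocarbon receptor, and kynurenic acid of Gpr35. Of 7 tested receptors and target genes 3 fell in edgeR (2 in DESeq2, 4 at an unadjusted p below 0.05). None rose in edgeR (0 in DESeq2, 0 at an unadjusted p below 0.05). Cyp1a1, the classic target gene, was at 0.388 ± 0.085 CPM in db/db and 2.12 ± 0.25 CPM in db/m (log2 fold change -2.44, SE 0.30, edgeR adjusted p = 0.00207, lower in 3 of 3 db/db libraries). It was near the detection limit, with 12, 8 and 10 counts in db/db replicates 1 to 3 and 56, 95 and 60 in db/m replicates 1 to 3. Nqo1, which also answers to oxidative stress, was at 65.1 ± 7.34 CPM in db/db and 109 ± 6.22 CPM in db/m (edgeR adjusted p = 0.00327). The other targets listed, Cyp1b1 and Tiparp, had log2 fold changes of 0.15 and -0.066 and did not pass (edgeR adjusted p = 0.623 and 0.793), nor did the receptor gene Ahr (-0.30, edgeR adjusted p = 0.406). Gpr35 was at 0.709 ± 0.031 CPM in db/db and 1.47 ± 0.33 CPM in db/m (log2 fold change -1.05, edgeR adjusted p = 0.0402), and its call ended in 9 of 13 other settings, among them leaving out any of db/db replicates 1, 2 and 3 (-1.06, -1.01 and -1.07) or db/m replicates 2 and 3 (-0.94 and -0.96).

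Of 6 tested regulators, 1 rose and 2 fell. Ppargc1a, a coactivator known to raise de novo NAD synthesis genes in mouse kidney, fell to 30.7 ± 2.12 CPM in db/db, against 52.3 ± 9.01 CPM in db/m (log2 fold change -0.77, SE 0.13, edgeR adjusted p = 0.00766). Arntl, given above, was the other fall. Hnf4a, a nuclear receptor of proximal tubule identity, was at 736 ± 46.3 CPM in db/db and 593 ± 72.9 CPM in db/m and did not pass (edgeR adjusted p = 0.0866), nor did Ppara, with a log2 fold change of -0.16 (edgeR adjusted p = 0.672).

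The genes whose profile over the 6 libraries lay closest to that of Kynu, by the root mean square difference of mean-centred log2 CPM, were Gc, Ugt1a10 and Slc22a29, at 0.24, 0.36 and 0.39 log2 units. Gc, which encodes the vitamin D binding protein, was at 16.9 ± 2.91 CPM in db/db and 250 ± 55.5 CPM in db/m. Ugt1a10, a glucuronosyltransferase whose counts are uncertain because the Ugt1a genes share exons, was at 16.9 ± 1.77 CPM in db/db and 185 ± 54.1 CPM in db/m. Slc22a29, of the organic anion transporter family, was at 2.22 ± 0.48 CPM in db/db and 21.4 ± 6.39 CPM in db/m. With groups this far apart, the measure mainly reflects the difference between groups.

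The scaling of libraries set the zero point of the smaller differences. With total counts only, the median over all genes moved by -0.26, to -0.32, and the split of calls over all genes became 1072 higher and 4883 lower, against 2151 and 1774. A change of scaling factors moves all genes by about the same amount, so values relative to that median stay nearly the same by construction. Relative to it, Kynu lay at -3.81 with total counts and -3.82 with TMM factors. Kmo lay at 0.36, Haao at 0.81, Qprt at 0.82 and Nampt at -0.46 with both.

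**Figure D5:**
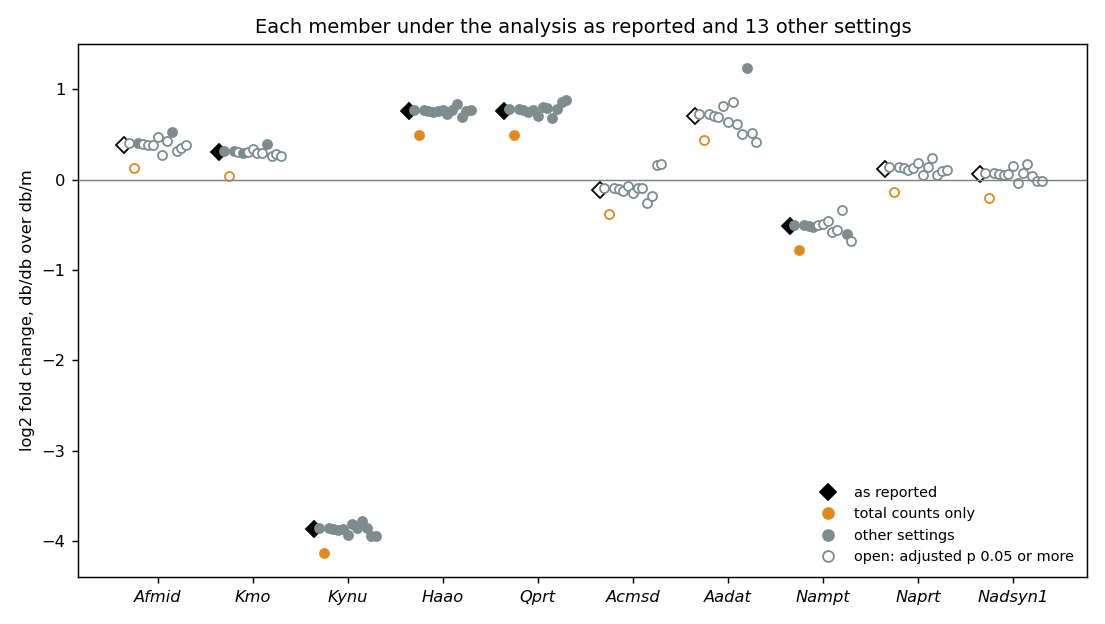
Log2 fold change of db/db over db/m for each of the 10 genes as reported (diamond) and in 13 other settings (circles, total counts only in orange), filled where the edgeR or DESeq2 adjusted p was below 0.05. Kynu, Haao and Qprt are filled throughout, whereas Kmo, Nampt, Afmid and Aadat change between filled and open.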

How the data were processed

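Polyadenylated whole kidney RNA was sequenced in 3 db/db and 3 db/m strand-specific libraries, per the labels' protocols. The authors deposited unnormalised counts for each gene symbol, whole numbers in 1 column per library, named after the sample titles. The submitters' processing notes list StringTie, HISAT2, SAMtools, DESeq2, fastp and FastQC, with neither versions nor roles. For genome build, annotation and counting settings nothing is stated there. A count of 2 occurred 4164 times and a count of 1 only 1318 times, so some fragments may have entered the counts repeatedly. The limit of 3 counts covers counting error only.

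From these counts, genes were filtered with filterByExpr and scaled by TMM, and db/db was compared with db/m by the edgeR 4.0.16 quasi-likelihood test (R 4.3.3) without covariates, adjusting p-values over all 16373 genes. The SE is the log2 fold change divided by the square root of F. Alternatives were DESeq2 1.42.0, other scalings and filters, a replicate block and libraries left out. Within a group, libraries differed by far more than sampling noise (a chi-square of 15.9 to 59.5 for each degree of freedom) and were kept as replicates. The genes, lists and tests were chosen with earlier results of these data known. All 10 genes were named, with the 3 genes of smallest p in each related list, genes that adjoin a described step, the first gene or summed level of each marker list, and the 3 genes nearest to the member of smallest adjusted p. Of the genes that this rule names, 1 is not reported here. Nmrk2 was not matched in the table, and Bmal1 was matched as Arntl. Exon lengths and overlaps are from GENCODE M21 (GRCm38) and promoters from RefSeq (GRCm38.p6), matched by symbol. The authors' annotation may differ from both.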

Additional observations from a re-analysis of the deposited data

How the results depend on the processing

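In 13 other settings Kynu, Haao and Qprt kept their direction and their call, and Kmo and Nampt kept their direction but lost the call in 9 and 7. Afmid gained one with DESeq2 (0.40) and without db/m replicate 1. All settings refit the libraries whose fold changes were known when the genes were selected, so a kept call is no independent support. With total counts only, 5 related genes were higher and 20 lower, instead of 8 and 11. Leaving out 1 library each gave 2 to 4 of the 10 genes higher and 1 to 2 lower, 5 to 11 related genes higher and 7 to 10 lower, and 1374 to 2011 of all genes higher and 851 to 1523 lower. Without replicate 3 of both groups, 1 of the 10 genes was lower, 5 related genes were higher, and 1052 of all genes were higher and 660 lower. The labels do not say whether replicate numbers pair the libraries, and 3 libraries a group are too few to decide it. The deviations of same-numbered libraries correlated at -0.15, 0.06 and 0.14, and not every library correlated best with its own number. With the replicate block, 1 of the 10 genes was called lower instead of 2 (Nampt at -0.50 was not called) and 1313 of all genes were higher and 973 lower. The values that changed sign, none of them called in either setting, were Acmsd when db/m replicate 3 was left out (0.16, range with 1 library left out -0.26 to 0.16) or both replicates 3 (0.17), Naprt with total counts only (-0.14), Nadsyn1 with total counts only (-0.20), without db/db replicate 2 (-0.042), when db/m replicate 3 (-0.018) or both replicates 3 were left out (-0.018; range with 1 library left out -0.042 to 0.18), and Dhtkd1 when db/m replicate 1 was left out (0.022, against -0.44 without both replicates 3 and -0.52 with total counts only). The cause was not tested, except that leaving out libraries reduces the number compared. With 3 libraries a group, differences as small as that of Kmo lie near the limit of what was called.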
